A study of Mus musculus with 12 samples.

Results

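The HDAC4 and HDAC5 deletion line (DKO) and the control line of Ocy454 osteocytes were compared after 3 h of fluid flow shear stress (FFSS). The comparison holds the 3 libraries titled as DKO cells with FFSS and the 3 titled as control cells with FFSS, which are 6 of the 12 libraries of the series. The other 6 are static libraries of the same lines, 3 of each, and serve here only to ask which differences are also present without agitation. Ocy454 is a mouse osteocyte line from long bone. According to the study's methods, a single-cell sub-clone was used, and the cells were grown at a permissive temperature and then warmed, which inactivates their T antigen and lets them differentiate. FFSS was applied by orbital rotation of the culture vessels on a heated mixing platform. The labels call the control line original cells. The sources used here do not say whether the DKO cells of these libraries were 1 clone or a pool, and with 1 line per genotype the deletion and any other difference between the lines cannot be told apart. The labels number the replicates 1 to 3 without saying that they were separate cultures, so the p-values measure only the spread between these libraries.

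Osteocytes are the cells enclosed in bone matrix. They sense mechanical load and send signals to the cells that build and resorb bone, among them sclerostin, the secreted product of Sost, which blocks WNT signalling. The class IIa histone deacetylases HDAC4 and HDAC5 bind MEF2 transcription factors in the nucleus and hold their target genes down, and Sost is known as a MEF2C target in these cells. The comparison therefore asks which gene functions separate the line labelled as deleted for both repressors from its control after flow.

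Reads in genes numbered between 17.6 and 19.2 M in the 12 libraries, and the floor of 3 counts lay between 0.156 and 0.171 CPM, the count scaled to library size. Such floors cover counting error only. Control FFSS replicate 1 stood apart from control FFSS replicates 2 and 3. It differed by more than 2-fold from them in 1083 and 1066 genes, whereas replicates 2 and 3 differed in 157 and the DKO FFSS pairs in 175 to 208. Its share of reads outside genes was 5.87%, against 9.19% and 10.04% in control FFSS replicates 2 and 3, 7.93% to 8.55% in the DKO FFSS libraries and 5.10% to 5.21% in the control static libraries. Biological variation between libraries, as a coefficient, came to 0.193 for control FFSS and 0.0360 for DKO FFSS. Results are therefore given with all 6 libraries. Counts without control FFSS replicate 1 are added for the lists whose number of calls then moved by more than 1.5 times. They are also given for some lists that moved less.

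The targeted genes were examined first. The longer Hdac4 gene model (ENSMUSG00000026313, mm9 chromosome 1, 93829334 to 94044970, minus strand) held 597, 775 and 860 counts in control and 239, 214 and 250 in DKO libraries, with values here and below in the order of replicates 1, 2 and 3. Every DKO library was below every control library, and the log2 change, given throughout as DKO over control with the SE of the fit, was −1.47 ± 0.14 (edgeR adjusted p = 0.000124). The shorter Hdac4 model (ENSMUSG00000073617) held 606, 403 and 441 and 322, 270 and 309 counts. Hdac5 (ENSMUSG00000008855, mm9 chromosome 11, 102055746 to 102091480, minus strand) held 1755, 1457 and 1664 counts in control and 1687, 1553 and 1660 in DKO libraries. These ranges overlapped, and the difference did not pass the threshold (log2 change 0.20 ± 0.09, edgeR adjusted p = 0.0983), so Hdac5 transcript counts do not separate the lines after flow. Counts per gene do not show whether the remaining transcripts still carry the targeted exons.

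Across all genes, 2285 of 13111 tested were called, that is, 17.4%, where a call needs an edgeR adjusted p (Benjamini-Hochberg) under 0.05 together with a change beyond 2-fold. Of these, 1172 genes (8.94% of those tested) were higher and 1113 (8.49%) lower in DKO cells. These shares are the background for every list count below. The split moved to 915 higher and 1511 lower when only library totals were used for scaling, and the median log2 fold change of all genes moved from −0.03 to −0.23. An unadjusted p under 0.05 was found in 59.7%. Groups did not overlap in 64% of all genes tested, with the DKO libraries above in 31% and below in 33%. Of the 2285 called genes, 2258 had no overlap. Where called genes are said below not to overlap, this therefore adds little to the call. Differences of more than 16-fold were found in 120 higher and 84 lower genes. Genes are named below by their size of change overall and within each list, and further list members, among them those not called, were chosen after their values were seen. Where a line held only 1 to 3 counts per library, levels are given without a fold. In bulk RNA, fewer cells in a state and less RNA per cell cannot be told apart.

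Of 18 gene models tested for histone deacetylases, MEF2 factors and SIK kinases, 3 rose, the longer Hdac4 model fell and 14 were not called. The 22.2% called is near the 17.4% of all genes, and the median log2 fold change was −0.07. Hdac9, another class IIa member, stood at 1.95, 1.18 and 0.999 CPM in the control and 23.7, 22.4 and 24.03 CPM in the DKO libraries (log2 change 4.10 ± 0.21, edgeR adjusted p = 1.27e-05). Mef2c, a MEF2 factor of bone and muscle, stood at 323, 106 and 114 CPM in the control and 617, 595 and 609.7 CPM in the DKO libraries (log2 change 1.76 ± 0.43, edgeR adjusted p = 0.0139). Mef2d stood at 102, 90.8 and 102 CPM in the control and 301, 277 and 290.3 CPM in the DKO libraries (log2 change 1.58 ± 0.07, edgeR adjusted p = 9.25e-06). No library of one line overlapped the other for any of these 3 genes.

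Among called genes with an average log2 CPM above 1, no overlap of the lines, at least 10 counts in the lower line and a symbol that is not a clone name, the largest increases were those of Sost, Col10a1, Col2a1, B3galt2, Dkk1, Col4a1, Col4a2, Frzb, Limch1 and Lipc, with log2 fold changes from 6.45 to 8.71. B3galt2, a galactosyltransferase, stood at 1.18, 0.197 and 0.4497 CPM in the control and 149.8, 138 and 145 CPM in the DKO libraries, and Lipc, hepatic lipase, at 1.95, 0.246 and 0.5995 CPM in the control and 87.3, 72.9 and 81.4 CPM in the DKO libraries. Limch1, an actin and myosin regulator, stood at 0.257, 0.246 and 0.5995 CPM in the control and 41.8, 35.2 and 36.4 CPM in the DKO libraries. The absence of overlap between the lines was a condition for naming these genes, not a further result.

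Under the same limits the largest decreases were those of Fam84b, Plcb1, Fndc1, Fat3, Hmcn1, Ppfibp2, Nkd1, Fam38b, Odz3 and Kcnma1, with log2 fold changes from −7.21 to −4.99. Kcnma1, the pore subunit of the large-conductance calcium-activated potassium channel, stood at 15.3, 3.498 and 3.85 CPM in the control and 0.221, 0.297 and 0.167 CPM in the DKO libraries. Plcb1, a phospholipase C, stood at 14.2, 19.3 and 19.7 CPM in the control and 0.386, 0.297 and 0.112 CPM in the DKO libraries. Fat3, a giant cadherin, stood at 11.4, 9.46 and 12.8 CPM in the control and 0.1103, 0.297 and 0.279 CPM in the DKO libraries, and Hmcn1, a basement membrane protein, at 7.15, 6.85 and 11.04 CPM in the control and 0.1103, 0.357 and 0.167 CPM in the DKO libraries. Each of these genes was close to the floor in the DKO libraries and well above it in every control library. Counts of Fam84b, Plcb1 and Ppfibp2 can be affected by overlapping genes, because the counting did not use strand.

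Most osteocyte genes were higher in DKO cells under flow, while podoplanin, a membrane glycoprotein, was lower. Sost (ENSMUSG00000001494, mm9 chromosome 11, 101823772 to 101828329, minus strand) stood at 11.4, 0.0985 and 2.298 CPM in the control and 1978, 1937 and 1735 CPM in the DKO libraries (log2 change 8.71 ± 1.08, edgeR adjusted p = 0.000845). The DKO libraries lay close together, while the control libraries ranged from below the floor to the value of replicate 1, and the lines did not overlap. Dmp1, a matrix phosphoprotein that acts in mineralization and phosphate control, stood at 96.8, 15.9 and 15.9 CPM in the control and 1058, 1074 and 932 CPM in the DKO libraries (log2 change 4.59 ± 0.80, edgeR adjusted p = 0.00334). Phex, an endopeptidase of the same phosphate pathway, stood at 36.05, 4.83 and 3.95 CPM in the control and 956, 854 and 916 CPM in the DKO libraries (log2 change 5.95 ± 0.92, edgeR adjusted p = 0.00204). In both genes control FFSS replicate 1 was the highest control library and still lay below every DKO library. Mepe, a further matrix phosphoprotein, was at 0.103, 0.0985 and 0.0999 CPM in the control libraries, which is below the floor, and at 16.2, 18.3 and 18.7 CPM in the DKO libraries. Irx5, a homeobox factor, stood at 106, 40.2 and 47.9 CPM in the control and 262, 241 and 240.2 CPM in the DKO libraries (log2 change 1.96 ± 0.36, edgeR adjusted p = 0.00409). Pdpn, an early osteocyte marker that acts in dendrite growth, went the other way at 40.1, 51.7 and 40.8 CPM in the control and 7.95, 6.603 and 6.91 CPM in the DKO libraries (log2 change −2.61 ± 0.14, edgeR adjusted p = 1.35e-05). Capg was also lower (−0.72) and Cd44 higher (0.58), both within the 2-fold limit and without overlap of the lines. In all, 5 of 8 tested osteocyte markers rose and 1 fell, with a median log2 fold change of 3.28.

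Most cartilage genes of the list rose in the DKO line. Col2a1, the main collagen of cartilage (ENSMUSG00000022483, mm9 chromosome 15, 97806033 to 97835155, minus strand), stood at 11.6, 0.788 and 2.65 CPM in the control and 1685, 1590 and 1418 CPM in the DKO libraries (log2 change 8.31 ± 0.88, edgeR adjusted p = 0.000433). Col10a1, the collagen of hypertrophic chondrocytes, stood at 2.98, 0.296 and 1.599 CPM in the control and 608, 526 and 427 CPM in the DKO libraries (log2 change 8.34 ± 0.53, edgeR adjusted p = 6.18e-05), although its reads can be shared with the overlapping gene Nt5dc1. Matn1, the cartilage protein matrilin, had 0 counts in every control FFSS library and between 42 and 60 counts in the DKO libraries, at least 20.3-fold higher when the control group is set to the floor. In each of these genes every DKO library was above every control library. Other members reached from transcription factors to signals. Sox9, the master factor of chondrocytes, stood at 62.2, 48.4 and 55.5 CPM in the control and 173, 169 and 146 CPM in the DKO libraries (log2 change 1.57 ± 0.11, edgeR adjusted p = 3.95e-05). Ihh, the growth plate hedgehog ligand, stood at 12.4, 2.12 and 2.898 CPM in the control and 33.6, 38.7 and 30.1 CPM in the DKO libraries (log2 change 2.57 ± 0.61, edgeR adjusted p = 0.0118). Mmp13, the collagenase of hypertrophic cartilage and osteocytes, stood at 54.2, 42.9 and 57.9 CPM in the control and 311, 340.5 and 283 CPM in the DKO libraries (log2 change 2.61 ± 0.13, edgeR adjusted p = 1.12e-05). For Sox9, Ihh and Mmp13 the lines did not overlap either.

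Not all cartilage genes followed. Acan, the main cartilage proteoglycan, stood at 5.71, 1.08 and 1.998 CPM in the control and 2.87, 4.11 and 3.18 CPM in the DKO libraries (edgeR adjusted p = 0.75), and Hapln1, its link protein, at 29.7, 6.503 and 6.09 CPM in the control and 8.77, 10.5 and 8.75 CPM in the DKO libraries (edgeR adjusted p = 0.47). The lines overlapped in both. Col9a3 fell at low levels (−1.14), with reads that can be shared with Tcfl5. Of 19 tested members of the chondrocyte and hypertrophy list, 13 rose and 1 fell, with a median log2 fold change of 1.32, which stays at that value when Matn1 is placed at its bound. The summed level of the list was 563 to 1518 CPM in control and 4670 to 5276 CPM in DKO libraries. Without control FFSS replicate 1, 16 members rose and 1 fell, and without DKO FFSS replicate 1 or control FFSS replicate 3, 9 rose and 0 fell.

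Several bone matrix genes and regulators rose as well. Col1a1, the main collagen of bone, stood at 14930, 5332 and 5524 CPM in the control and 50670, 51340 and 49820 CPM in the DKO libraries (log2 change 2.58 ± 0.42, edgeR adjusted p = 0.00221), and the second chain Col1a2 at 11470, 4171 and 4345 CPM in the control and 38890, 40060 and 37660 CPM in the DKO libraries (log2 change 2.56 ± 0.41, edgeR adjusted p = 0.00208). Ibsp, bone sialoprotein, stood at 2922, 462 and 514 CPM in the control and 7751, 8242 and 7718 CPM in the DKO libraries (log2 change 2.62 ± 0.75, edgeR adjusted p = 0.0241). Replicate 1 was the highest control library in all 3 genes, and no control library reached a DKO library. Bglap, osteocalcin, stood at 23.04, 6.75 and 8.19 CPM in the control and 226, 228 and 200.4 CPM in the DKO libraries (log2 change 4.13 ± 0.46, edgeR adjusted p = 0.000544), and Bglap2, a near-identical copy between which reads may be divided, rose by 3.75 on the log2 scale. Spp1, osteopontin, stood at 1258, 976 and 893 CPM in the control and 5268, 5259 and 4516 CPM in the DKO libraries (log2 change 2.28 ± 0.15, edgeR adjusted p = 2.84e-05). Sp7, the osteoblast factor osterix, stood at 322, 98.5 and 117 CPM in the control and 749.5, 765 and 730.3 CPM in the DKO libraries (log2 change 2.08 ± 0.45, edgeR adjusted p = 0.00826). In all, 13 of 23 tested members of the osteoblast list rose.

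Of the other osteoblast list members 1 fell and 9 were not called, and 18 rose and 1 fell in the whole list without control FFSS replicate 1. Omd, the small proteoglycan osteomodulin, fell, with 87.1, 38.6 and 51.7 CPM in the control and 4.91, 4.52 and 5.91 CPM in the DKO libraries (log2 change −3.51 ± 0.33, edgeR adjusted p = 0.000233). Alpl, alkaline phosphatase, stood at 1499, 511 and 678 CPM in the control and 1660, 1765 and 1577 CPM in the DKO libraries (edgeR adjusted p = 0.0836), and Ifitm5, a mineralization protein of osteoblasts, at 126, 19.3 and 21.1 CPM in the control and 65.8, 69.1 and 67.6 CPM in the DKO libraries (edgeR adjusted p = 0.741). The highest control library of Ifitm5 lay above all DKO libraries, so the lines overlapped. The median of the list was 1.40 on the log2 scale. Against control FFSS replicate 1 alone it was 0.83, and against replicates 2 and 3 it was 1.90 and 1.80. The share of reads outside genes moved with these values among the control libraries, and its part in the result for this list was not tested. Over all genes, with that share as a covariate in a fit of all 12 libraries, 2501 were called under FFSS. Of these, 2235 were shared with the fit of the 6 FFSS libraries.

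**Figure D1:**
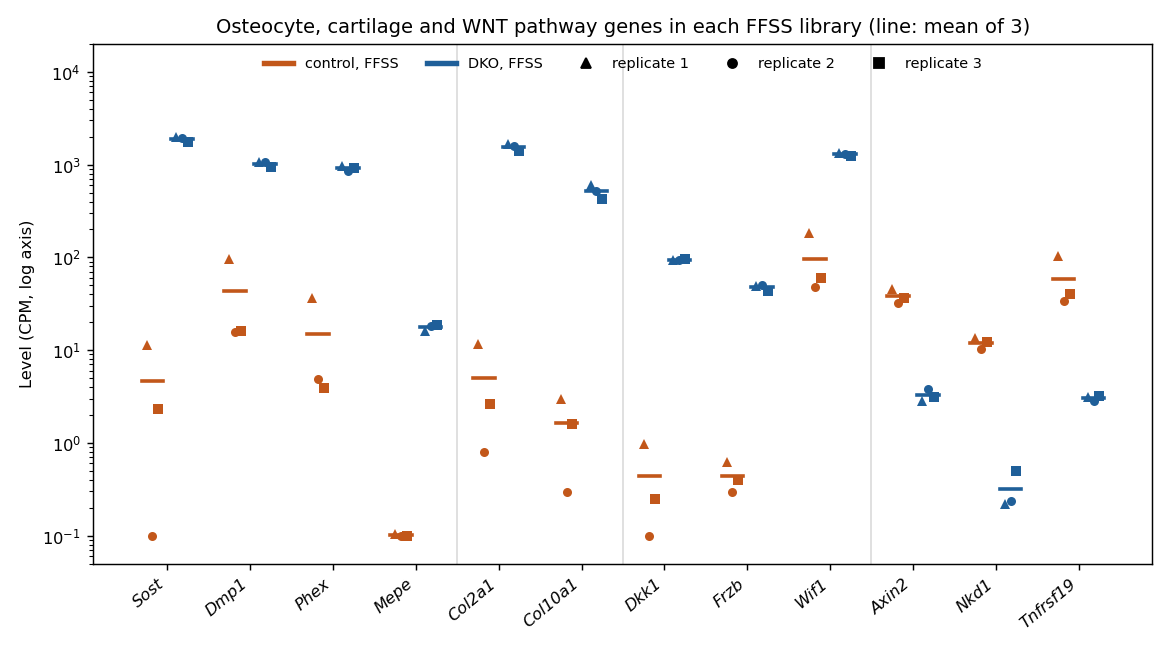
Levels of 12 skeletal and WNT pathway genes in each FFSS library, in CPM on a log axis, with a mark for each replicate and a line at the mean of the 3 libraries of a line. Sost, Dmp1, Phex, Mepe, Col2a1, Col10a1, Dkk1, Frzb and Wif1 lie higher in every DKO library than in any control library, whereas Axin2, Nkd1 and Tnfrsf19 lie lower, and control FFSS replicate 1 is often the control library nearest to the DKO libraries.

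Most secreted WNT antagonists rose. Besides Sost, Dkk1, which blocks the WNT co-receptor, stood at 0.977, 0.0985 and 0.2498 CPM in the control and 92.96, 92.8 and 96.7 CPM in the DKO libraries (log2 change 7.75 ± 0.38, edgeR adjusted p = 1.78e-05). Frzb, a decoy for WNT ligands, stood at 0.617, 0.296 and 0.3997 CPM in the control and 49.7, 50.03 and 42.9 CPM in the DKO libraries (log2 change 6.76 ± 0.19, edgeR adjusted p = 1.39e-06). Wif1, a second kind of WNT-binding decoy, stood at 182, 48.2 and 59.8 CPM in the control and 1336, 1296 and 1252 CPM in the DKO libraries (log2 change 3.76 ± 0.53, edgeR adjusted p = 0.00146). DKO libraries were tightly grouped and above all control libraries for the 3 genes. Dkk3 rose by 1.63 and Sfrp2 by 1.48 on the log2 scale, while Notum (0.60) and Sfrp4 (−0.64) were not called. In all, 6 of 8 tested antagonists rose and 0 fell, with a median log2 fold change of 2.70.

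Of 12 tested genes that WNT signalling induces, as feedback or as targets, 5 fell, 1 rose and 6 were not called. Axin2, a scaffold of the beta-catenin destruction complex and a common readout of the pathway, stood at 45.1, 32.3 and 36.9 CPM in the control and 2.81, 3.81 and 3.12 CPM in the DKO libraries (log2 change −3.54 ± 0.17, edgeR adjusted p = 1.09e-05). Nkd1, which restrains Dishevelled, stood at 13.6, 10.2 and 12.1 CPM in the control and 0.221, 0.238 and 0.502 CPM in the DKO libraries (log2 change −5.17 ± 0.27, edgeR adjusted p = 1.33e-05). Tnfrsf19, a receptor of the tumour necrosis factor family, stood at 103, 34.2 and 40.5 CPM in the control and 3.09, 2.796 and 3.18 CPM in the DKO libraries (log2 change −4.27 ± 0.51, edgeR adjusted p = 0.000699). The DKO libraries were below all control libraries in each. Nkd2 (−3.41) and Lgr5 (−1.41, at low levels) fell as well. Wisp1, a matricellular WNT target of osteoblasts, rose instead, from 195, 186 and 159 to 461, 423 and 459 CPM (log2 change 1.33 ± 0.09, edgeR adjusted p = 3.56e-05). Tcf7 (−0.87), Ccnd1 (−0.50), Znrf3 (−0.69), Wisp2 (−0.90), Rnf43 (−0.34) and Lef1 (0.71) were not called. Without control FFSS replicate 1, 2 rose and 6 fell, and with all libraries the list had a median log2 fold change of −0.89.

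WNT ligands were divided, with 3 of 11 tested higher and 3 lower, although without DKO FFSS replicate 1 only 1 was called higher, and without DKO FFSS replicate 2 or control FFSS replicate 3 it was 2. Wnt5b, a ligand of the beta-catenin independent branch, stood at 5.97, 3.005 and 2.85 CPM in the control and 30.4, 29.98 and 28.5 CPM in the DKO libraries (log2 change 2.93 ± 0.26, edgeR adjusted p = 0.000136). Wnt1, mutated in inherited bone fragility, stood at 3.55, 1.48 and 1.15 CPM in the control and 7.06, 4.64 and 6.41 CPM in the DKO libraries (log2 change 1.57 ± 0.40, edgeR adjusted p = 0.0134). Wnt7b, which promotes bone formation, was at 2.93, 2.61 and 2.45 CPM in control and at 0.0552, 0 and 0.112 CPM in DKO libraries, the latter below the floor. Wnt11 stood at 11.7, 12.9 and 11.3 CPM in the control and 3.25, 2.62 and 3.07 CPM in the DKO libraries (log2 change −1.99 ± 0.14, edgeR adjusted p = 3.96e-05). Among receptors of this branch, Ror1 was silent in DKO cells (0 counts, against 45 to 57 in control FFSS libraries, at least 15.2-fold lower).

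Signals to osteoclasts, the bone-resorbing cells, changed in several genes. Tnfsf11, the osteoclast differentiation factor RANKL, stood at 3.703, 3.104 and 3.45 CPM in the control and 13.96, 16.7 and 11.2 CPM in the DKO libraries (log2 change 2.04 ± 0.18, edgeR adjusted p = 9.43e-05), without overlap. Its decoy receptor Tnfrsf11b (osteoprotegerin) was not called, with 93.1, 45.9 and 36.9 CPM in the control and 77.7, 80.4 and 75.6 CPM in the DKO libraries (edgeR adjusted p = 0.305). Sema3a, a semaphorin that inhibits osteoclasts and promotes bone formation, stood at 68.5, 114 and 109.7 CPM in the control and 9.27, 9.94 and 9.14 CPM in the DKO libraries (log2 change −3.35 ± 0.21, edgeR adjusted p = 3.43e-05). Ccl2, a monocyte chemokine, stood at 33.02, 111 and 80.2 CPM in the control and 18.8, 20.9 and 23.8 CPM in the DKO libraries (log2 change −1.81 ± 0.42, edgeR adjusted p = 0.0111). DKO libraries were low in all 3 replicates for Sema3a and Ccl2, and control FFSS replicate 1 was the lowest control library for both. In total 1 of 10 tested regulators rose and 3 fell (40% called, against 17.4% of all genes). Without control FFSS replicate 1, 3 rose and 4 fell.

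Pathways upstream of bone formation differed as well. TGF-beta and BMP genes had 13 members higher and 2 lower of 29 tested (median 0.79). Nog, the BMP antagonist noggin, stood at 1.23, 1.72 and 1.95 CPM in the control and 36.6, 34.03 and 32.8 CPM in the DKO libraries (log2 change 4.41 ± 0.16, edgeR adjusted p = 3.45e-06), and Grem1, another BMP antagonist, was at or under the floor in control libraries and at 5.41, 8.69 and 6.47 CPM in DKO libraries. Inhba and Inhbb, subunits of activin, fell to 13.3, 12.3 and 15.1 CPM from 21.6, 55.8 and 43.4 CPM (log2 change −1.55 ± 0.33, edgeR adjusted p = 0.00727) and to 47.7, 41.9 and 45.6 CPM from 114, 85.3 and 92.2 CPM (log2 change −1.09 ± 0.12, edgeR adjusted p = 0.000257). Antagonists of BMP thus rose and activin subunits fell without overlap of the lines. The BMP target genes Id1 (1.10), Id2 (1.54) and Id4 (4.05) and the inhibitory Smad6 (1.43) also rose. In the Notch list 2 of 13 rose and 3 fell (38.5% called, against 17.4% of all genes). Hey1, a Notch target, stood at 2.21, 1.23 and 1.699 CPM in the control and 35.5, 41.2 and 35.5 CPM in the DKO libraries (log2 change 4.46 ± 0.19, edgeR adjusted p = 6.69e-06), and the ligand Jag1 at 54.2, 80.2 and 90.9 CPM in the control and 13.3, 12.1 and 13.7 CPM in the DKO libraries (log2 change −2.51 ± 0.20, edgeR adjusted p = 8.01e-05).

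Collagen genes moved in both directions, 15 higher and 7 lower of 35 tested. Col4a1 stood at 2.06, 1.33 and 2.05 CPM in the control and 256, 246 and 238 CPM in the DKO libraries (log2 change 7.10 ± 0.14, edgeR adjusted p = 5.41e-07) and Col4a2 at 1.800, 1.82 and 2.55 CPM in the control and 276, 263 and 256 CPM in the DKO libraries (log2 change 7.02 ± 0.13, edgeR adjusted p = 5.41e-07). These chains form the network of basement membranes, and their genes lie head to head, so reads near their shared start cannot be assigned with certainty. Col6a5 (−4.46) and Col6a4 (−3.14) fell, as did Col3a1, the fibrillar collagen of soft connective tissue (448, 289 and 364 CPM in the control and 55.7, 55.5 and 47.1 CPM in the DKO libraries). For these genes the libraries of the lines did not overlap. Among matrix linkers and small proteoglycans 5 of 21 rose and 5 fell. Vcan, the large proteoglycan versican, stood at 4.32, 4.93 and 5.796 CPM in the control and 24.7, 24.1 and 21.5 CPM in the DKO libraries (log2 change 2.24 ± 0.14, edgeR adjusted p = 2.27e-05), and Tnc, tenascin C, at 757, 559.5 and 648 CPM in the control and 1901, 1892 and 1869 CPM in the DKO libraries (log2 change 1.54 ± 0.11, edgeR adjusted p = 4.84e-05). Tnxb, a tenascin of loose connective tissue, was at 2.78, 2.17 and 3.95 CPM in control and at 0.1103, 0.178 and 0.112 CPM in DKO libraries, at or under the floor.

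Proteases and their inhibitors gave 10 higher and 8 lower of 29. Adamts18, a secreted metalloproteinase, stood at 17.4, 4.29 and 5.15 CPM in the control and 0.828, 0.773 and 0.892 CPM in the DKO libraries (log2 change −3.40 ± 0.66, edgeR adjusted p = 0.00495). Mmp3, stromelysin, fell from 1.29, 0.788 and 0.649 CPM to 0 counts in 2 of the DKO libraries and 1 count in the third. Timp4, a protease inhibitor, was at or under the floor in control and at 2.65, 3.63 and 3.51 CPM in DKO libraries.

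**Figure D2:**
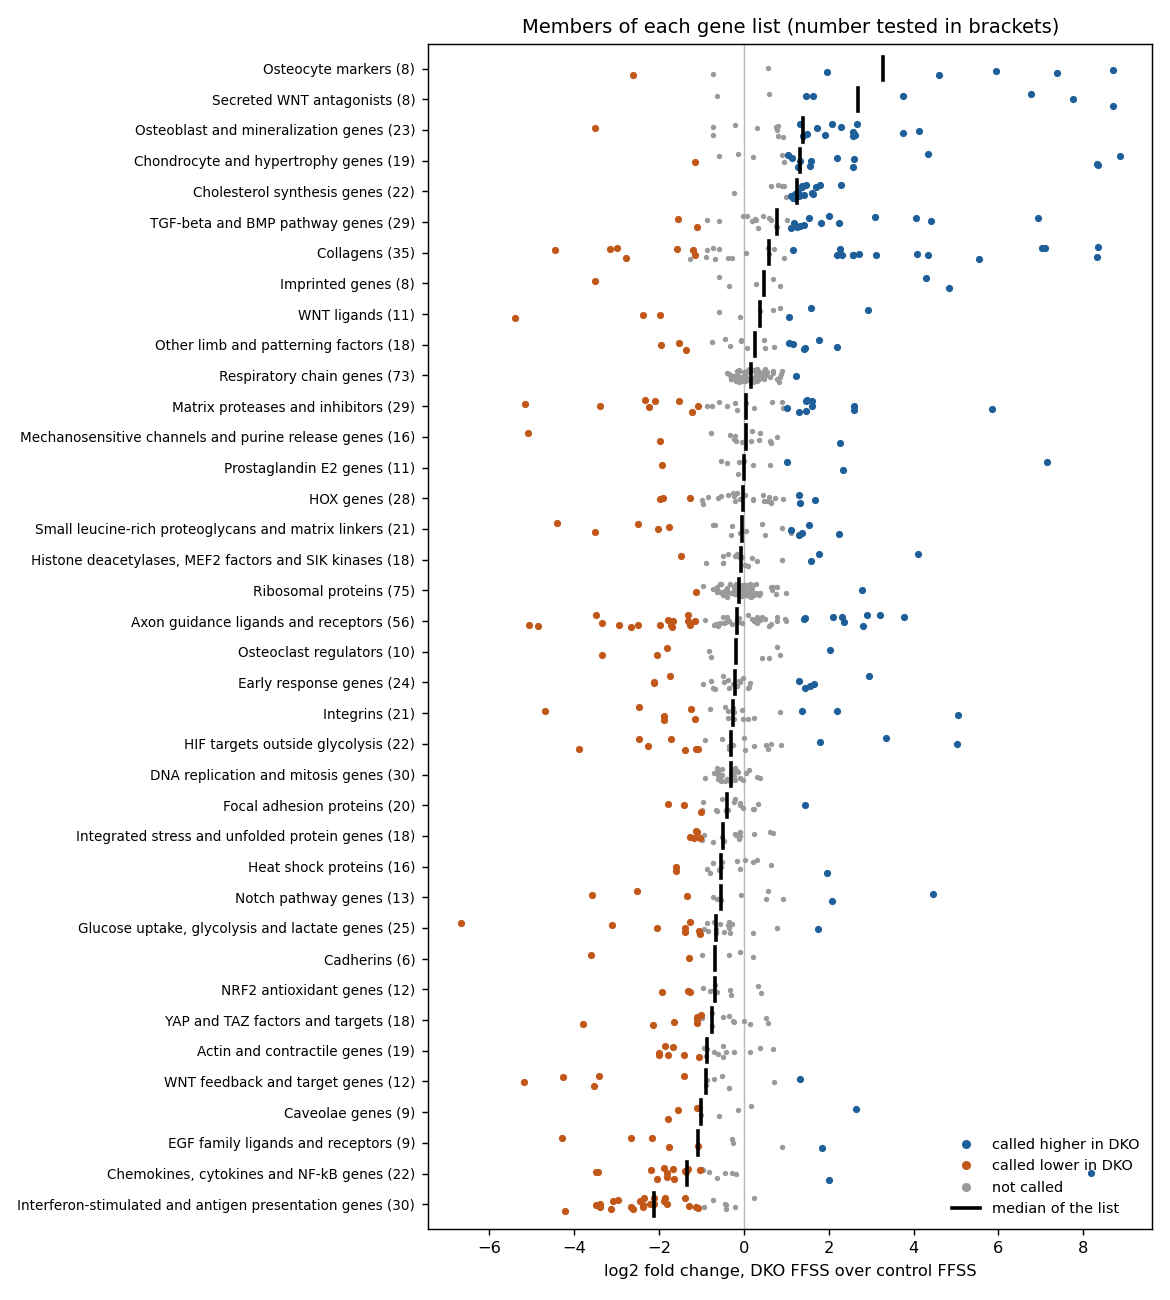
The log2 fold change of DKO over control under FFSS for every tested member of 38 gene lists, 1 point per gene, coloured by whether it was called higher, called lower or not called, with a black bar at the median of each list. Cholesterol synthesis, osteocyte, WNT antagonist and chondrocyte lists lie to the right of 0, interferon, chemokine, actin and caveolae lists lie to the left, and ribosomal, respiratory chain and DNA replication lists lie close to 0.

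Most interferon-stimulated genes were lower in the DKO line. These genes are induced when interferons bind their receptors, and they encode antiviral enzymes, RNA sensors and the antigen presentation machinery. Of 30 tested members 23 fell and 0 rose, and the median log2 fold change was −2.11. Their summed level was 4626 to 4928 CPM in control and 1869 to 1895 CPM in DKO libraries. Promoters of 3 members are shown because the members fell together. They are RefSeq sequences of the GRCm38.p6 build, each from 250 bases before to 50 after the gene start, whereas the counts rest on mm9. Capitals mark the core of the interferon-stimulated response element, GAAA, any 2 bases and GAAA, on either strand. This motif was added after the data were seen, and overlapping matches are joined.
Isg15 (chr4:156200769-156201068, minus strand): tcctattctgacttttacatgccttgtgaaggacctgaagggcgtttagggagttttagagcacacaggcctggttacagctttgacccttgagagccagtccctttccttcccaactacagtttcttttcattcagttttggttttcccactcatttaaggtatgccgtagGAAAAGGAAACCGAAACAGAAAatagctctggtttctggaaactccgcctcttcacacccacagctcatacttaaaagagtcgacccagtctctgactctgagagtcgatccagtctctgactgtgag
Ifit1 (chr19:34640639-34640938, plus strand): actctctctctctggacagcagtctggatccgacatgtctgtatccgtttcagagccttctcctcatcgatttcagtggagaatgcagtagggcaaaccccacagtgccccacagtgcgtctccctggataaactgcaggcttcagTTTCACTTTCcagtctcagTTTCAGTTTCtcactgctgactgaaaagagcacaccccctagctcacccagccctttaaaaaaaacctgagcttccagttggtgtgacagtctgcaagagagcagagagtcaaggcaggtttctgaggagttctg
Oas1a (chr5:120907476-120907775, minus strand): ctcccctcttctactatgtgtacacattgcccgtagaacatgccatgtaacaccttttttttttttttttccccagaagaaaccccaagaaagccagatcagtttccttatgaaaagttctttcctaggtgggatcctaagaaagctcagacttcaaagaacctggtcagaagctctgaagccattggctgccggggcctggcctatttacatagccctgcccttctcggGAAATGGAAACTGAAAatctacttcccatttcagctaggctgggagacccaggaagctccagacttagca

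A match was found in 11 of the 24 tested members with a RefSeq promoter (45.8%) and in 3.49% of all 27025 promoters. Among the called members the share was 8 of 18. The shared letters describe these promoters and do not show binding.

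Several antiviral genes of this list fell. Oas1a, a sensor of double-stranded RNA, stood at 5.25, 10 and 10.5 CPM in the control and 0.1103, 0.535 and 0.725 CPM in the DKO libraries (log2 change −4.21 ± 0.49, edgeR adjusted p = 0.000442). Usp18, which removes the ubiquitin-like Isg15 from proteins and damps interferon signalling, stood at 8.33, 15.4 and 18.7 CPM in the control and 0.883, 1.49 and 1.39 CPM in the DKO libraries (log2 change −3.48 ± 0.37, edgeR adjusted p = 0.000279). Isg15 itself stood at 36.6, 56.2 and 54.1 CPM in the control and 19.6, 19.1 and 16.8 CPM in the DKO libraries (log2 change −1.39 ± 0.17, edgeR adjusted p = 0.000488), and Ifit1, an inhibitor of viral translation, at 6.74, 19.2 and 18.6 CPM in the control and 3.75, 2.62 and 3.85 CPM in the DKO libraries (log2 change −2.11 ± 0.42, edgeR adjusted p = 0.00543). In each gene control FFSS replicate 1 was the lowest control library, and it was still above every DKO library. Irf7, the factor that amplifies the response, stood at 26.4, 37.6 and 38.3 CPM in the control and 6.73, 6.25 and 6.63 CPM in the DKO libraries (log2 change −2.37 ± 0.16, edgeR adjusted p = 3.72e-05), with reads that can be shared with Phrf1.

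Several antigen presentation genes fell as well. H2-K1, a classical MHC class I heavy chain, stood at 674, 685 and 765 CPM in the control and 115, 106 and 120.2 CPM in the DKO libraries (log2 change −2.62 ± 0.09, edgeR adjusted p = 2.54e-06), and H2-D1 at 1221, 1054 and 1188 CPM in the control and 318, 302 and 327 CPM in the DKO libraries (log2 change −1.85 ± 0.08, edgeR adjusted p = 7.78e-06). Such genes have close copies, so reads may be divided among them. Tap1, the peptide transporter, stood at 36.00, 38.3 and 49.6 CPM in the control and 8.66, 9.58 and 8.42 CPM in the DKO libraries (log2 change −2.20 ± 0.14, edgeR adjusted p = 3.05e-05), and Psmb8, an immunoproteasome subunit, at 32.04, 44.8 and 43.97 CPM in the control and 6.400, 8.21 and 7.302 CPM in the DKO libraries (log2 change −2.45 ± 0.17, edgeR adjusted p = 3.29e-05). The DKO libraries lay well below the 3 control libraries in each. B2m, the light chain, missed the 2-fold limit (−0.95). The RNA sensors Ifih1 (−1.14) and Ddx58 (−1.08) had the smallest called decreases.

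Other regulators of these genes were not called. Irf1 stood at 76.2, 99.1 and 101 CPM in the control and 79.6, 79.4 and 79.8 CPM in the DKO libraries, not past the 2-fold limit. Stat2 (log2 fold change −0.43) and Irf9 (−0.72) were not called, nor were Ifit2 (0.24) and Ifit3 (−0.41).

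Of 22 tested genes of chemokines, cytokines and NF-kB 13 fell and 2 rose. Cxcl1, a neutrophil chemokine, stood at 11.8, 15.9 and 15.5 CPM in the control and 1.66, 1.01 and 1.28 CPM in the DKO libraries (log2 change −3.43 ± 0.21, edgeR adjusted p = 2.57e-05). Il33, an alarmin cytokine, stood at 10.1, 8.13 and 9.64 CPM in the control and 0.717, 0.654 and 1.06 CPM in the DKO libraries (log2 change −3.49 ± 0.21, edgeR adjusted p = 2.33e-05). No library overlapped in either. The exceptions were Cxcl12, the chemokine that retains haematopoietic cells, at 113, 212 and 202 CPM in the control and 701, 693 and 714 CPM in the DKO libraries (log2 change 2.01 ± 0.23, edgeR adjusted p = 0.00046), and Cxcl14, at or under the floor in control and at 6.400, 6.48 and 7.36 CPM in DKO libraries. The median of the list was −1.34. It was −0.43 against control FFSS replicate 1 and −1.55 and −1.34 against replicates 2 and 3, and 16 members fell when replicate 1 was left out.

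Growth factor signals of the EGF family were mostly lower, with 5 of 9 lower and 1 higher. Egfr, the EGF receptor, stood at 19.9, 23.1 and 24.6 CPM in the control and 4.86, 4.16 and 5.85 CPM in the DKO libraries (log2 change −2.16 ± 0.15, edgeR adjusted p = 4.12e-05). Nrg1, a ligand of the ERBB receptors, stood at 19.8, 55.7 and 47.7 CPM in the control and 6.07, 6.13 and 7.25 CPM in the DKO libraries (log2 change −2.65 ± 0.39, edgeR adjusted p = 0.00149), and the single increase was Ereg, epiregulin, at 0.566, 2.37 and 2.15 CPM in the control and 6.01, 6.13 and 5.91 CPM in the DKO libraries (log2 change 1.83 ± 0.40, edgeR adjusted p = 0.00717). The lines did not overlap for these genes. Reads of Nrg1 can be shared with Gm17443.

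Most cholesterol synthesis genes rose. The enzymes of this pathway are induced by the factor SREBP2 when cellular sterol is low. Of 22 tested genes 16 rose and 0 fell, with a median log2 fold change of 1.25, and the summed level was 1927 to 2782 CPM in control and 4968 to 5198 CPM in DKO libraries. Fdps, which makes farnesyl diphosphate, stood at 58.4, 32.9 and 37.1 CPM in the control and 208, 206 and 201 CPM in the DKO libraries (log2 change 2.28 ± 0.21, edgeR adjusted p = 0.000171). Nsdhl, a sterol demethylation enzyme, stood at 44.7, 29.6 and 29.7 CPM in the control and 122, 115 and 117 CPM in the DKO libraries (log2 change 1.78 ± 0.16, edgeR adjusted p = 0.000136). Insig1, a sterol-regulated inhibitor of SREBP processing, stood at 195, 125 and 139 CPM in the control and 493, 480 and 494 CPM in the DKO libraries (log2 change 1.69 ± 0.16, edgeR adjusted p = 0.000164). All DKO libraries were above all control libraries in these genes, and control FFSS replicate 1 was the highest control library. Sqle, squalene epoxidase, stood at 213, 159.6 and 153 CPM in the control and 452, 445 and 441 CPM in the DKO libraries (log2 change 1.36 ± 0.12, edgeR adjusted p = 0.000121).

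The smallest called increases of this list were those of Idi1 (1.11) and Tm7sf2 (1.15). Lss (0.89), Mvd (0.95), Srebf2 (0.80) and Sc5d (0.63) passed the adjusted p but not the fold limit. Ebp was the only tested member with a lower fitted value (−0.22, edgeR adjusted p = 0.306). With library totals alone as the scaling, 13 rose and 0 fell. Letters of the sterol regulatory element (TCACNCCAC, either strand, added after the data were seen) were present in 0 of the 15 members with a promoter and in 1.22% of all promoters.

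Of 25 tested genes of glucose uptake, glycolysis and lactate, 8 fell, 1 rose and 16 were not called, with a median log2 fold change of −0.66. The share called was 36%, against 17.4% of all genes. Slc2a1, the glucose transporter GLUT1, stood at 114, 102 and 116 CPM in the control and 43.5, 48.7 and 43.6 CPM in the DKO libraries (log2 change −1.27 ± 0.08, edgeR adjusted p = 2.95e-05). Slc2a3, the transporter GLUT3, stood at 5.503, 3.99 and 6.39 CPM in the control and 0.386, 0.833 and 0.613 CPM in the DKO libraries (log2 change −3.10 ± 0.31, edgeR adjusted p = 0.000184). Hk2, which phosphorylates glucose, stood at 70.98, 106 and 92.5 CPM in the control and 43.6, 40.5 and 45.4 CPM in the DKO libraries (log2 change −1.04 ± 0.15, edgeR adjusted p = 0.000874). The lines did not overlap. Slc16a3, the lactate exporter MCT4, fell from 21.6, 13.4 and 13.5 CPM to 0.166, 0.119 and 0.167 CPM in the DKO libraries, at or below the floor, with reads that can be shared with Csnk1d. Pfkl, a phosphofructokinase subunit, stood at 197, 147 and 162 CPM in the control and 64.4, 63.6 and 63.4 CPM in the DKO libraries (log2 change −1.39 ± 0.11, edgeR adjusted p = 6.18e-05), and Gpi1, glucose-6-phosphate isomerase, at 541, 313 and 352 CPM in the control and 146, 162 and 151 CPM in the DKO libraries (log2 change −1.38 ± 0.20, edgeR adjusted p = 0.00119).

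Pgam1, phosphoglycerate mutase, fell at a later step of glycolysis, with 25.2, 19.9 and 19.6 CPM in the control and 9.71, 11.8 and 9.25 CPM in the DKO libraries (log2 change −1.06 ± 0.14, edgeR adjusted p = 0.000742). Several other genes of the later steps were not called. Ldha, lactate dehydrogenase A, stood at 2045, 1119 and 1280 CPM in the control and 1027, 1139 and 1039 CPM in the DKO libraries (edgeR adjusted p = 0.11), and Pkm2, pyruvate kinase, at 2759, 1563 and 1769 CPM in the control and 1548, 1607 and 1509 CPM in the DKO libraries (edgeR adjusted p = 0.159). Control FFSS replicates 2 and 3 of these genes lay within or near the DKO range, and replicate 1 lay above it. Aldoa (−0.56), Tpi1 (−0.66), Gapdh (−0.70), Pgk1 (−0.66) and Eno1 (−0.88) were likewise not called. Ldhb was the only increase (0.309, 0.296 and 0.799 CPM in the control and 2.15, 1.13 and 1.39 CPM in the DKO libraries), and without DKO FFSS replicate 1, 0 members of the list rose.

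HIF target genes outside glycolysis were divided, with 7 of 22 lower and 3 higher (45.5% called, against 17.4% of all genes). HIF is the transcription factor that accumulates when oxygen is scarce. Promoters of Slc2a1 and of the HIF target with the largest decrease are shown because these genes fell together, again from RefSeq GRCm38.p6, and capitals mark ACGTG on either strand, the core of the hypoxia response element.
Slc2a1 (chr4:119108495-119108794, plus strand): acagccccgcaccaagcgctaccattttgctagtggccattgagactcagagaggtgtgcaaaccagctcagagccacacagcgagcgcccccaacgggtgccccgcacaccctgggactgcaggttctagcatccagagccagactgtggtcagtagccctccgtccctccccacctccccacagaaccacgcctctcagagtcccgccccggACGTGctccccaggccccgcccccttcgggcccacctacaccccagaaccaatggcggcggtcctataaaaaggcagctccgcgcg
Car9 (chr4:43506776-43507075, plus strand): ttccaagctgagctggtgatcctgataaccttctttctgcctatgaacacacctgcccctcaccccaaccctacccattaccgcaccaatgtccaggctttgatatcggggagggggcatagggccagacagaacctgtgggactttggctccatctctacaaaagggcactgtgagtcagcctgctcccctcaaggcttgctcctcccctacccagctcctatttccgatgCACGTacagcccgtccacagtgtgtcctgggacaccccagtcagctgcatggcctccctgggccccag

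The letters were present in 9 of 16 promoters of tested HIF list members (56.2%), in 12 of 24 of the glycolysis list (50%) and in 19.7% of all promoters. Car9, a carbonic anhydrase, stood at 110.1, 42.4 and 54.1 CPM in the control and 4.91, 4.04 and 4.74 CPM in the DKO libraries (log2 change −3.89 ± 0.40, edgeR adjusted p = 0.000354). Egln3, a prolyl hydroxylase that marks HIF for destruction, stood at 51.6, 28.5 and 28.03 CPM in the control and 6.62, 7.02 and 5.52 CPM in the DKO libraries (log2 change −2.48 ± 0.27, edgeR adjusted p = 0.000348). Ddit4, an inhibitor of mTORC1, stood at 36.98, 25.03 and 27.1 CPM in the control and 5.85, 6.72 and 5.74 CPM in the DKO libraries (log2 change −2.27 ± 0.17, edgeR adjusted p = 5.27e-05). The DKO libraries were low in all replicates.

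Other members of the same list were high instead. Adm, the vasodilator adrenomedullin, stood at 0.3600, 0.6404 and 0.0999 CPM in the control and 11.9, 13.3 and 10.6 CPM in the DKO libraries (log2 change 5.01 ± 0.36, edgeR adjusted p = 4.57e-05). Apln, the vascular peptide apelin, stood at 22.6, 25.8 and 23.9 CPM in the control and 89.4, 85.6 and 71.4 CPM in the DKO libraries (log2 change 1.78 ± 0.11, edgeR adjusted p = 2.22e-05), and Car12, another carbonic anhydrase, at 2.01, 3.35 and 2.15 CPM in the control and 23.9, 24.1 and 27.6 CPM in the DKO libraries (log2 change 3.34 ± 0.19, edgeR adjusted p = 1.96e-05). Vegfa rose within the 2-fold limit, with 196, 235 and 252 CPM in the control and 428, 411 and 406 CPM in the DKO libraries (log2 change 0.88 ± 0.10, edgeR adjusted p = 0.000315). Ankrd37, a HIF target with reads that can be shared with Ufsp2, stood at 1.75, 0.985 and 0.649 CPM in the control and 1.21, 0.952 and 1.23 CPM in the DKO libraries and the lines overlapped. Respiratory chain genes did not follow either direction. Of 73 tested, 1 rose, Ndufb5 (1.23), whose reads can be shared with Mrpl47, and 3 rose without control FFSS replicate 1.

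Of 19 tested genes of the contractile cytoskeleton 7 fell, 0 rose and 12 were not called (36.8% called, against 17.4% of all genes, median −0.88). Acta2, smooth muscle actin, stood at 346, 1021 and 985 CPM in the control and 187, 203 and 190.1 CPM in the DKO libraries (log2 change −2.01 ± 0.39, edgeR adjusted p = 0.00563). Myl9, a myosin light chain, stood at 152, 307 and 315 CPM in the control and 61.7, 66.4 and 64.4 CPM in the DKO libraries (log2 change −1.99 ± 0.27, edgeR adjusted p = 0.0011). Tpm1, tropomyosin, stood at 932, 1183 and 1114 CPM in the control and 371, 426 and 399 CPM in the DKO libraries (log2 change −1.42 ± 0.11, edgeR adjusted p = 5.65e-05). All control libraries were above all DKO libraries, and control FFSS replicate 1 was the lowest control library in each. The list median was −0.43 against that replicate and −1.07 and −1.04 against replicates 2 and 3, and 10 members fell and 1 rose when it was left out.

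YAP and TAZ are co-activators that enter the nucleus when cells are spread or under tension. Of 18 factors and targets 7 fell and 0 rose (38.9% called, against 17.4% of all genes, median −0.75). Without control FFSS replicate 1, 9 fell. Ankrd1, a classical target, stood at 32.9, 207 and 149 CPM in the control and 8.33, 10.3 and 9.25 CPM in the DKO libraries (log2 change −3.79 ± 0.67, edgeR adjusted p = 0.00361). Wwtr1, which encodes TAZ, stood at 312, 303 and 301 CPM in the control and 151, 143 and 153 CPM in the DKO libraries (log2 change −1.02 ± 0.06, edgeR adjusted p = 2.12e-05), with control libraries close together. Tead4, the DNA-binding partner, stood at 13.4, 16.8 and 17.1 CPM in the control and 7.06, 8.33 and 6.52 CPM in the DKO libraries (log2 change −1.09 ± 0.15, edgeR adjusted p = 0.000692). DKO libraries were the lowest in all 3 genes. The targets Ctgf (71.5, 304 and 236 CPM in the control and 226, 233 and 208 CPM in the DKO libraries) and Cyr61 (288, 841 and 739.9 CPM in the control and 347, 373 and 376 CPM in the DKO libraries) were not called, and in both genes the control libraries spanned the DKO range, with replicate 1 far below the others. Against replicate 1 alone the list median was −0.25, and against replicates 2 and 3 it was −1.01 and −1.02.

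Caveolae, membrane pits that buffer stretch, had 4 of 9 genes lower and 1 higher (55.6% called, against 17.4% of all genes). Cav1 stood at 59.04, 125 and 114 CPM in the control and 24.9, 30.9 and 29.6 CPM in the DKO libraries (log2 change −1.79 ± 0.28, edgeR adjusted p = 0.0019), Cav2 at 51.4, 64.1 and 55.8 CPM in the control and 17.8, 18.5 and 21.7 CPM in the DKO libraries (log2 change −1.55 ± 0.12, edgeR adjusted p = 5.74e-05), and Ptrf, the coat protein cavin, at 531, 482 and 499 CPM in the control and 239.9, 236 and 249 CPM in the DKO libraries (log2 change −1.04 ± 0.07, edgeR adjusted p = 2.84e-05). Cav3, the muscle form, rose at low levels (0.206, 0.394 and 0.1499 CPM in the control and 1.32, 2.201 and 1.23 CPM in the DKO libraries). Focal adhesion genes had 1 higher and 3 lower of 20 (20% called, against 17.4% of all genes), and 1 higher and 6 lower without control FFSS replicate 1. Zyx, zyxin, stood at 196, 475 and 474 CPM in the control and 104, 122 and 103 CPM in the DKO libraries (log2 change −1.79 ± 0.34, edgeR adjusted p = 0.00473), Bcar1, the adaptor p130Cas, fell to a log2 fold change of −1.02, and the kinase Fyn rose, with 154, 102 and 114 CPM in the control and 333, 321 and 347 CPM in the DKO libraries (log2 change 1.45 ± 0.15, edgeR adjusted p = 0.000207). Ptk2, which encodes the focal adhesion kinase of interest to the study, differed little, with 129, 114 and 113 CPM in the control and 140.1, 137 and 129 CPM in the DKO libraries (log2 change 0.21 ± 0.07, edgeR adjusted p = 0.0485).

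The integrin list was divided, with 3 of 21 higher and 6 lower (42.9% called, against 17.4% of all genes). It was drawn by symbol and also holds related genes that are not integrin chains, such as Itgb1bp1 and Itgbl1. Itgb3, the beta chain of the vitronectin receptor, stood at 6.89, 3.45 and 4.696 CPM in the control and 171, 171 and 150.3 CPM in the DKO libraries (log2 change 5.05 ± 0.22, edgeR adjusted p = 1.09e-05). Itga7, a laminin receptor chain, stood at 11.4, 10.5 and 10.8 CPM in the control and 53.9, 49.9 and 45.7 CPM in the DKO libraries (log2 change 2.21 ± 0.09, edgeR adjusted p = 6.99e-06). Itga9 fell, with 6.74, 5.47 and 7.34 CPM in the control and 0.166, 0.178 and 0.3902 CPM in the DKO libraries (log2 change −4.68 ± 0.31, edgeR adjusted p = 3.05e-05). The DKO libraries did not overlap the control libraries in these 3 genes. Without control FFSS replicate 1, 5 members of the list rose and 7 fell.

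Channels and receptors that respond to force or to released purines were mostly not called, with 1 of 16 higher and 2 lower, which is 18.8% called against 17.4% of all genes. Without control FFSS replicate 1, 4 rose and 2 fell. Fam38b, which encodes the stretch-activated channel PIEZO2, stood at 9.41, 10.99 and 15.2 CPM in the control and 0.386, 0.238 and 0.3902 CPM in the DKO libraries (log2 change −5.08 ± 0.30, edgeR adjusted p = 1.97e-05), and Fam38a, which encodes PIEZO1, at 301, 415 and 461 CPM in the control and 352, 325 and 339 CPM in the DKO libraries (edgeR adjusted p = 0.298). Cacna1h, a T-type calcium channel subunit, stood at 0.977, 1.43 and 2.05 CPM in the control and 7.72, 6.25 and 7.302 CPM in the DKO libraries (log2 change 2.27 ± 0.26, edgeR adjusted p = 0.000306). P2ry2, a receptor for extracellular ATP and UTP, stood at 3.81, 7.34 and 4.95 CPM in the control and 1.16, 1.73 and 1.17 CPM in the DKO libraries (log2 change −1.98 ± 0.31, edgeR adjusted p = 0.00132). The lines were apart for Fam38b, Cacna1h and P2ry2 and overlapped for Fam38a. A further purine receptor, P2ry1, had 0 counts in the DKO FFSS libraries and 32 to 43 in the control FFSS libraries, at least 10.9-fold lower.

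Early response genes, which are transcribed within minutes of a stimulus, had 5 members higher and 3 lower of 24 (33.3% called, against 17.4% of all genes). Those that rose included the orphan nuclear receptors of the NR4A family. Promoters of 3 called members are shown because they hold a MEF2 site, the DNA element bound by the partners of HDAC4 and HDAC5. Capitals mark the site on either strand, in RefSeq GRCm38.p6 sequence.
Klf2 (chr8:72318812-72319111, plus strand): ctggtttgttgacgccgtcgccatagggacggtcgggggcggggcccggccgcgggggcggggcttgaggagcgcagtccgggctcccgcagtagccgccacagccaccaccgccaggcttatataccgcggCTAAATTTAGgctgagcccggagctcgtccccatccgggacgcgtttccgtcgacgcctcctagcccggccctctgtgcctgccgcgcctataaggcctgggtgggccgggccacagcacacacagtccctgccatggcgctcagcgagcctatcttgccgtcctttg
Nr4a2 (chr2:57123954-57124253, minus strand): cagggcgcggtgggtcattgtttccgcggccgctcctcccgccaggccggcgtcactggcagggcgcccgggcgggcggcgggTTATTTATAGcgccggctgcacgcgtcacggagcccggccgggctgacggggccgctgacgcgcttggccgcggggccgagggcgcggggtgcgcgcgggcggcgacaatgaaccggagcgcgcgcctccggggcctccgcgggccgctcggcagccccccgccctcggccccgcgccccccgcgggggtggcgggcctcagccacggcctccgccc
Jun (chr4:95052173-95052472, minus strand): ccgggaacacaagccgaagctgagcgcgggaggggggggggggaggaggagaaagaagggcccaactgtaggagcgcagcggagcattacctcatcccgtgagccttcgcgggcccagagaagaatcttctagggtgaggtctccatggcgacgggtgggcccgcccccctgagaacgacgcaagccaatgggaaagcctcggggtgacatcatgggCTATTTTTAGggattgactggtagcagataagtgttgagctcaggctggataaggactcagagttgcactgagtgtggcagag

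The site was present in 4 of 19 promoters of tested members (21.1%), in 3 of 6 called members with a promoter (50%) and in 3.26% of all promoters. It was present in 0 of 7 promoters of tested osteocyte markers, 0 of 14 of the chondrocyte list, 0 of 5 of the WNT antagonists and 0 of 24 of the interferon list, which says only that these windows lack the letters. The 3 called early response members did not move in 1 direction. Nr4a2 stood at 13.5, 7.74 and 8.99 CPM in the control and 30.01, 33.2 and 31.3 CPM in the DKO libraries (log2 change 1.66 ± 0.19, edgeR adjusted p = 0.000369). Klf2, a flow-responsive factor of endothelium that was chosen for its promoter, stood at 56.2, 25.7 and 26.7 CPM in the control and 102, 98.9 and 89.6 CPM in the DKO libraries (log2 change 1.44 ± 0.30, edgeR adjusted p = 0.00656). Jun, an AP-1 subunit chosen likewise, stood at 87.5, 129 and 126 CPM in the control and 31.9, 33.9 and 35.7 CPM in the DKO libraries (log2 change −1.74 ± 0.15, edgeR adjusted p = 0.000118). For each gene the lines did not overlap.

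Other early response genes gave the same division. Nr4a3 stood at 4.12, 3.104 and 4.896 CPM in the control and 30.3, 31.4 and 30.7 CPM in the DKO libraries (log2 change 2.94 ± 0.16, edgeR adjusted p = 1.35e-05), and Nr4a1 at 34.9, 22.3 and 28.98 CPM in the control and 83.5, 88.1 and 79.9 CPM in the DKO libraries (log2 change 1.56 ± 0.15, edgeR adjusted p = 0.000174). Fosb stood at 8.44, 13.4 and 11.4 CPM in the control and 2.87, 2.02 and 2.73 CPM in the DKO libraries (log2 change −2.10 ± 0.22, edgeR adjusted p = 0.000235), and Fosl1 at 16.7, 29.5 and 29.03 CPM in the control and 5.35, 5.89 and 5.85 CPM in the DKO libraries (log2 change −2.12 ± 0.23, edgeR adjusted p = 0.000298), with reads that can be shared with Ccdc85b. NR4A genes were thus high and these AP-1 genes low in every DKO library. Fos (−0.09), Egr1 (−0.25) and Junb (0.15) were not called.

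Guidance molecules of the semaphorin, ephrin, netrin and slit families had 9 of 56 members higher and 16 lower (44.6% called, against 17.4% of all genes). Without control FFSS replicate 1, 13 were higher and 17 lower. Sema5a stood at 47.6, 13.9 and 15.5 CPM in the control and 245, 223 and 228 CPM in the DKO libraries (log2 change 3.20 ± 0.48, edgeR adjusted p = 0.00185) and Efna3 at 5.503, 2.17 and 2.598 CPM in the control and 45.1, 48.2 and 44.3 CPM in the DKO libraries (log2 change 3.76 ± 0.30, edgeR adjusted p = 0.000104), with reads that can be shared with Gm15998. Plxnc1, a plexin receptor, was at 5.66, 3.99 and 5.796 CPM in control and at 0.276, 0.178 and 0.0557 CPM in DKO libraries. Epha7, an ephrin receptor, was at 2.62, 1.92 and 3.75 CPM in control and under the floor in DKO libraries. These 4 genes did not overlap between the lines.

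Of 18 genes of the integrated stress and unfolded protein response 5 fell and 0 rose (27.8% called, against 17.4% of all genes). Chac1, a glutathione-degrading enzyme induced by ATF4, stood at 54.9, 69.8 and 66.95 CPM in the control and 25.4, 27.8 and 25.4 CPM in the DKO libraries (log2 change −1.27 ± 0.11, edgeR adjusted p = 8.82e-05), and Trib3, a pseudokinase of the same response, at 98.8, 100.1 and 101 CPM in the control and 45.9, 49.4 and 43.1 CPM in the DKO libraries (log2 change −1.10 ± 0.07, edgeR adjusted p = 3.15e-05). Libraries of each line were close together. Atf4 itself was not called (0.25). Heat shock genes had 2 lower and 1 higher of 16 (18.8% called, against 17.4% of all genes). Hspb1 stood at 15.5, 13.3 and 12.7 CPM in the control and 4.14, 4.402 and 5.02 CPM in the DKO libraries (log2 change −1.60 ± 0.14, edgeR adjusted p = 8.84e-05) and Hspb8 at 6.53, 5.67 and 5.696 CPM in the control and 24.3, 22.2 and 22.1 CPM in the DKO libraries (log2 change 1.95 ± 0.11, edgeR adjusted p = 1.61e-05).

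Lists of general cell function were nearly level. Of 30 DNA replication and mitosis genes 0 were called by edgeR, and 0 by DESeq2 or limma-voom, although 23 (against 59.7% of all genes) had an unadjusted edgeR p under 0.05. These 23 also had an adjusted edgeR p under 0.05, against 53.9% of all genes. The lines did not overlap in 25 of the 30, against 64% of all genes. Their median log2 fold change was −0.31, so the shifts were small and mostly downward. Of 75 ribosomal protein genes 1 rose and 1 fell, Rpl3l and Rpl39l, with a median of −0.11, and 2 rose and 2 fell without DKO FFSS replicate 3 or control FFSS replicate 1.

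A few genes were silent in one line and clearly transcribed in the other. In DKO FFSS libraries 9 genes had 0 counts while every control FFSS library held at least 10. Among them were the pseudogene AA414768 (at least 49.6-fold lower when each DKO library is set to the floor of 3 counts), the ubiquitin ligase Lonrf3 (29.2), Ror1, Lrch2 (14.6), Cpne4 (11.97), P2ry1, Slc25a48 (7.93) and Slfn2 (6.36). In control FFSS libraries 11 genes were silent by the same rule. These included Trpc6, a calcium channel, with 62 to 77 counts in DKO libraries (at least 26.1-fold higher), the translation factor Gspt2 (22.1), Matn1, Zbtb16 (18.8), Tbx1 (11.3), the proteoglycan Bcan (7.97), Shroom2 (6.52) and Zfp429 (5.63). In the static libraries of the same line none of these genes had more than 3 counts in any library.

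Markers of other cell types were examined beside these lists. No endothelial marker of 6 passed the filter, and their summed level was 0.103 to 1.03 CPM in control and 0.119 to 0.441 CPM in DKO libraries. Muscle markers summed to 5.85 to 8.33 CPM in control and 7.30 to 9.58 CPM in DKO libraries with 2 of 8 tested, and macrophage and osteoclast markers to 68.7 to 100 CPM and 57.6 to 62.4 CPM with 4 of 10 tested. Adipocyte markers summed to 22.9 to 38.6 CPM and 17.8 to 21.3 CPM with 2 of 8 tested, and epithelial markers to 16.01 to 20.7 CPM and 5.57 to 5.83 CPM with 2 of 6 tested. Neuron and glia markers summed to 39.9 to 118 CPM in control and 12.4 to 12.9 CPM in DKO libraries, most of it Tubb3 (117, 40.7 and 38.7 CPM in the control and 11.8, 11.1 and 11.8 CPM in the DKO libraries), and tendon and fibroblast markers to 73.7 to 144 CPM and 224 to 241 CPM. For neuron and glia markers 2 of 6 were tested, and for tendon and fibroblast markers 4 of 6. Among tested tendon and fibroblast markers 2 were called higher and 1 lower, and 2 epithelial markers were called lower. Macrophage and osteoclast markers had 1 higher and 1 lower. Muscle, adipocyte, and neuron and glia markers had 1 lower each. Ptprc, Adipoq, Krt5, Snap25 and Tnmd were among the markers that did not pass the filter. The part of these markers in the results above was not tested.

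The contribution of control FFSS replicate 1 was read from the list medians against each control library. The osteocyte list had a median difference in log2 CPM of 2.31 against replicate 1 and of 4.31 and 4.18 against replicates 2 and 3. The cholesterol list had 1.07, 1.44 and 1.43 and the WNT antagonists 2.45, 3.06 and 2.96 in the same order. Interferon genes had −1.59, −2.06 and −2.34. Glycolysis genes were the reverse, with −1.03 against replicate 1 and −0.48 and −0.61 against the others. For caveolae genes the medians were −0.97, −0.97 and −1.05. The direction was the same against each control library in all of these lists, and the size was larger against replicate 1 for glycolysis, nearly the same for caveolae and smaller for the others.

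**Figure D3:**
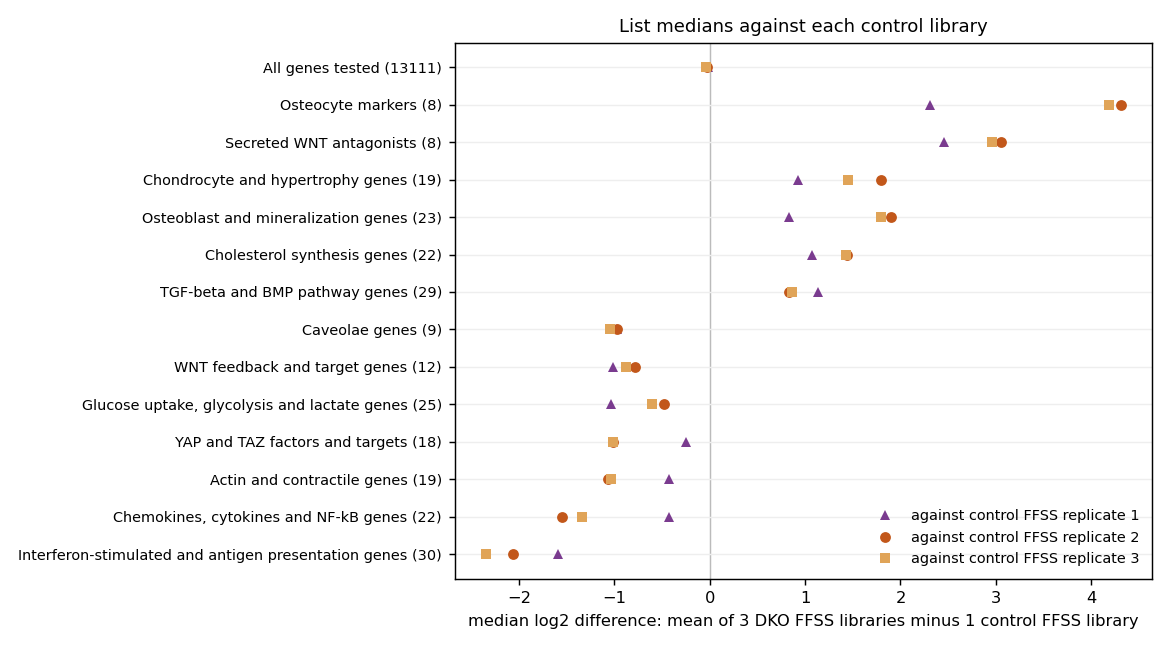
Median over the members of a gene list of the log2 CPM difference between the mean of the DKO FFSS libraries and each control FFSS library, with 1 mark per control replicate and rows for 13 lists and all genes. The medians for all genes lie at −0.02 to −0.04, and replicate 1 lies nearer to 0 than replicates 2 and 3 for the osteocyte, osteoblast, actin, YAP and chemokine lists and farther from 0 for glycolysis.

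Static libraries show which of these differences exist without agitation. In static culture 2163 of 12984 genes (16.7%) were called between the lines, 1114 higher (8.58%) and 1049 lower (8.08%). Of the 2170 FFSS calls that were tested in both conditions, 1528 (70.4%) were called in static culture in the same direction, which is 74.2% of the 2058 static calls, and 0 were called in the opposite direction. Both comparisons use separate libraries. The median log2 fold change of genes higher under FFSS was 1.60, against 1.41 for the same genes in static culture, and that of genes lower under FFSS was −1.64, against −1.40. Sost had a static log2 fold change of 8.60, Col2a1 of 8.95, Dkk1 of 6.61 and Axin2 of −3.36.

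The interaction term tests whether the difference between the lines changed with flow. It was called for 94 of 13480 genes (0.697%), 52 higher and 42 lower, by the same limits in a fit of all 12 libraries. Without control FFSS replicate 1 it was called for 1102 genes, of which 92 were among the 94, and it was called for 40 to 66 genes without any other 1 of the 12 libraries. An FFSS call without a static call is therefore not in itself a difference between conditions. Of 642 genes called under FFSS alone, 610 had the same sign in static culture and 73 had an interaction adjusted p under 0.05, which 4.33% of all genes had.

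The lines lay closer together under FFSS than in static culture for Tnfsf11 and Sema7a and farther apart for Apln and Adm. Tnfsf11 was 0.994 ± 0.144 CPM in control static and 13.4 ± 0.4298 CPM in DKO static cells (mean ± SD, n = 3), so its static log2 fold change was 3.75, and the interaction was −1.73 (SE 0.24, edgeR adjusted p = 0.00269). Under FFSS the means were 3.42 ± 0.301 CPM in control and 13.9 ± 2.73 CPM in DKO cells. Sema7a, a membrane semaphorin, was 12.2 ± 1.77 and 55.1 ± 3.73 CPM in static culture and 37.2, 62.2 and 50.01 CPM in the control and 67.6, 63.9 and 62.2 CPM in the DKO libraries under FFSS (interaction −1.80, SE 0.22, edgeR adjusted p = 0.00181). The lines were far apart in static culture and adjoined under flow.

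Apln was 157 ± 1.85 CPM in control static and 184 ± 27.1 CPM in DKO static cells, and after flow the control libraries were lower than the DKO libraries (interaction 1.54, SE 0.15, edgeR adjusted p = 0.000287). Adm gave an interaction of 2.50 (SE 0.43, edgeR adjusted p = 0.00914), from 3.24 ± 0.476 CPM in control static and 18.2 ± 4.02 CPM in DKO static cells. Hdac9 (1.85, edgeR adjusted p = 0.00142) and Hdac5 (0.83, edgeR adjusted p = 0.00199) had interactions in the same direction, the latter within the 2-fold limit. Hdac5 was 132 ± 7.03 CPM in control static and 84.4 ± 5.52 CPM in DKO static cells, a difference not found in the FFSS levels given first.

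No test of a whole list compared the conditions. The interaction was called for 2 of 30 interferon genes, 0 of 22 chemokine genes, 0 of 22 cholesterol synthesis genes, 0 of 25 glycolysis genes, 3 of 22 HIF targets and 1 of 16 heat shock genes, against 0.697% of all genes. The static counts were 0 higher and 19 lower for interferon genes, 2 and 4 for chemokines, 15 and 0 for cholesterol synthesis, and 1 and 15 for glycolysis. The FFSS log2 fold change was below the static one in 27 of 30 interferon genes and 17 of 21 chemokine genes tested in both, and in 3 of 25 glycolysis genes, 3 of 22 HIF targets and 1 of 16 heat shock genes, against 50.2% of all 12819 genes tested in both. It was also below in 15 of 73 respiratory chain, 20 of 75 ribosomal protein, 5 of 22 osteoblast and 7 of 9 EGF family genes. Shares far from that of all genes were thus not limited to the lists named before. Interferon genes in control FFSS replicates 1, 2 and 3 had medians of 0.08, 0.88 and 0.93 above control static cells on the log2 scale, while those of the DKO libraries lay between −0.08 and −0.04. Glycolysis genes lay below the static level, with medians of −0.45, −1.01 and −0.90 for the control replicates and −0.23, −0.15 and −0.27 for those of the DKO line. For interferon and glycolysis genes the medians of control FFSS replicates 2 and 3 lay farther from static culture than those of any DKO library, whereas the interferon median of control FFSS replicate 1 did not.

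**Figure D4:**
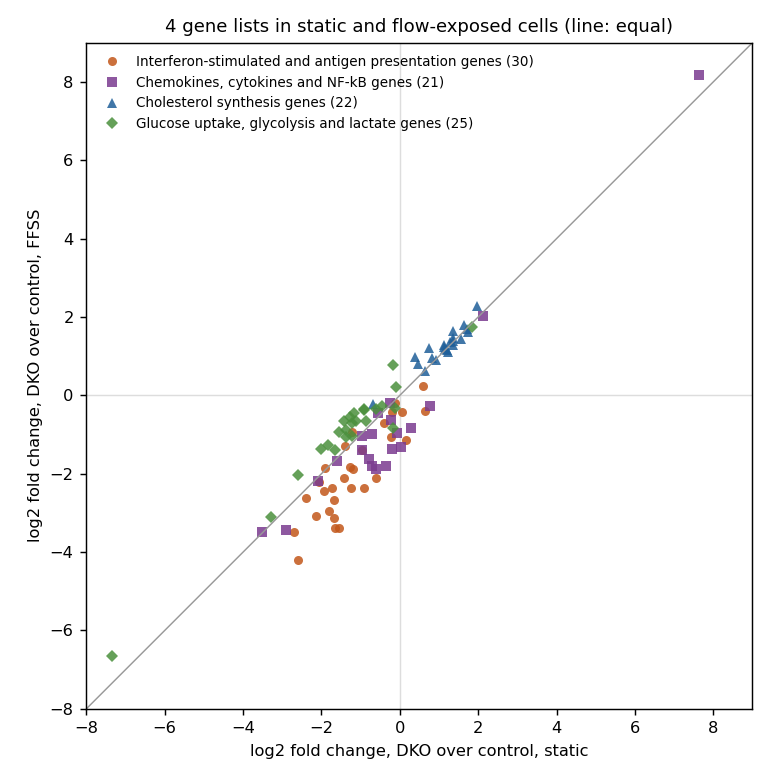
The log2 fold change of DKO over control in static culture (horizontal axis) and under FFSS (vertical axis) for the members of the interferon, chemokine, cholesterol synthesis and glycolysis lists tested in both conditions, 1 point per gene, with a line of equality. Interferon and chemokine genes lie below the line in 27 of 30 and 17 of 21 cases, glycolysis genes lie above it in most cases, and cholesterol genes lie along it.

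Some further genes that the study named were read in the same libraries. Gpr35, an orphan receptor, stood at 14.3, 7.88 and 9.64 CPM in the control and 0.221, 0.654 and 0.446 CPM in the DKO libraries (log2 change −4.57 ± 0.37, edgeR adjusted p = 7.85e-05). Cd244, an immune receptor, differed by −0.84 (edgeR adjusted p = 0.0161), and Zmynd17, now called Mss51, a muscle protein, by −0.63 (edgeR adjusted p = 0.138) on the log2 scale. Of these only Gpr35 was called, with the DKO libraries below every control library.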

How the data were processed

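RNA of the 12 libraries had been sequenced as single-end reads on a BGISEQ platform. The authors aligned the reads to mm9 with STAR and deposited raw counts per Ensembl gene from HTSeq, with no use of strand, so reads of overlapping genes cannot be separated. The deposited counts were tested with edgeR 4.0.16 in R 4.3.3 (TMM scaling, filterByExpr, robust quasi-likelihood test, Benjamini-Hochberg adjustment over all genes tested). A call needs both an adjusted p under 0.05 and a change beyond 2-fold. The 6 FFSS libraries were fitted alone, the static libraries likewise, and the interaction in all 12. Levels are CPM scaled over all 12. Positions are those of the mm9 annotation.

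Named were the 10 largest changes each way, 2 highest and 2 lowest called folds of each list, 8 silent genes and 5 interactions each way, Hdac4, Hdac5 and genes the study names. Members and lists were chosen with earlier results of these data known. Alternatives were RLE factors, library totals, other filters, DESeq2 1.42.0, limma-voom (limma 3.58.1), a replicate block, a covariate, other limits and leaving out each library. The fit was tested on simulated data with the same spread in all libraries. That setting does not cover the unequal spread of the control and DKO FFSS libraries. Rows naming no gene were left out of library sizes. Reads outside genes are the no-feature row alone, ambiguous reads made up 2.70% to 2.95%, and multimapping reads numbered 3432466 to 4099400 per library. Ambiguous and multimapping reads are not in the gene counts. Where reads are said to be shared or divided between genes, they can therefore also be missing from both. A few genes are not reported here.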

Additional observations from a re-analysis of the deposited data

Results flagged for a closer look

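The named genes below were set apart because the difference between the lines changed with flow by a test of that change (edgeR interaction, adjusted p under 0.05 and beyond 2-fold). Each value is the log2 fold change of DKO over control under FFSS minus that in static culture. It was positive for Adm (2.50), Hspa1b (2.29, with reads that may be divided with the copy Hspa1a), Robo1 (2.23), Ppp1r3b (2.13), Pkp1 (2.05), Hdac9 (1.85), Ankrd37 (1.81) and Apln (1.54). It was negative for Abca3 (−1.80), Sema7a (−1.80), Tnfsf11 (−1.73), Mtmr7 (−1.68, with reads that can be shared with Vps37a), Klhdc8a (−1.66), Ifih1 (−1.32), Fosb (−1.15), Vcan (−1.04) and Twist2 (−1.01). Robo1, a receptor of guidance cues, stood at 3.05 ± 0.338 CPM in control static, 3.32 ± 0.314 CPM in DKO static, 0.558 ± 0.525 CPM in control FFSS and 2.85 ± 0.398 CPM in DKO FFSS libraries (mean ± SD, n = 3). Ppp1r3b, which targets a phosphatase to glycogen, stood at 22.9 ± 1.498, 106 ± 3.05, 4.38 ± 3.25 and 88.1 ± 4.49 CPM in the same order. Abca3, a lipid transporter, stood at 1.62 ± 0.371, 5.69 ± 1.197, 4.27 ± 1.12 and 4.28 ± 0.591 CPM. The lines thus differed in Abca3 in static culture and had like means under flow. Pkp1, a desmosome protein, stood at 4.72 ± 0.504, 5.95 ± 0.689, 1.58 ± 0.856 and 8.24 ± 0.783 CPM, and Klhdc8a at 21.5 ± 1.86, 10.5 ± 1.45, 94.8 ± 28.5 and 14.6 ± 1.64 CPM. No cause was tested.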

How the results depend on the processing

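Calls under FFSS made up 17.4% of the genes tested, 53.9% with the adjusted p alone and 6.14% with a 4-fold limit. Those in static culture made up 16.7%, 73.3% and 5.41%, and those of the interaction 0.697%, 4.33% and 0.0742%, in the same order. The interaction count of 94 became 175 with DESeq2, 971 with limma-voom and sample weights, and 62 with the share of reads outside genes as a covariate. It ranged from 40 to 1102 when 1 library was left out, with 1102 (492 higher and 610 lower) without control FFSS replicate 1 and 40 to 66 without each of the other 11 libraries, and the cause was not tested. The chondrocyte list had 9 to 17 members called when 1 library was left out, with 9 without DKO FFSS replicate 1 or control FFSS replicate 3. The actin list had 6 to 11, with 11 without control FFSS replicate 1. The sign of Abca3 (0.02 under FFSS) turned to −0.19 with library totals, −0.11 with sample weights, −0.09 without DKO FFSS replicate 1 and −0.15 without control FFSS replicate 1, in a range of −0.15 to 0.16 when 1 library was left out. That of Ankrd37 (0.03) turned to −0.16 with library totals, −0.02 and −0.03 without DKO FFSS replicates 1 and 3, and −0.06 and −0.25 without control FFSS replicates 2 and 3, in a range of −0.25 to 0.51. Among the 171 named genes called under FFSS, 0 reversed in 2716 combinations of gene and alternative, 2641 kept the call and 75, in 25 genes, lost it. The most lost under 1 alternative was 9, without DKO FFSS replicate 1 or control FFSS replicate 2. Most of these genes were named for the size of their change in the same libraries, so these counts do not describe calls in general. Of all 2285 calls under FFSS, 2001 to 2195 were also called when 1 library was left out. With a replicate block 2278 genes were called, 2232 of them shared with the fit without it, and 86 in the interaction. Deviations of libraries with the same number correlated at 0.055, −0.0068 and 0.060 and those with other numbers at −0.077 to 0.061, so the numbers do not pair the libraries. Depth limits genes near the floor of 3 counts, and 3 libraries per line limit the spread that can be estimated.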

Other observations

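Of 28 tested HOX genes, which set position along the body axis, 3 rose and 3 fell under FFSS, or 3 and 5 without control FFSS replicate 1. The 21.4% called is near the 17.4% of all genes, and the median was −0.03. Hoxb2 stood at 0.823, 0.838 and 0.4497 CPM in the control and 2.26, 2.26 and 2.23 CPM in the DKO libraries (log2 change 1.69 ± 0.27, edgeR adjusted p = 0.00152), and Hoxb9, at the other end of the same cluster, at 53.3, 77.5 and 72.5 CPM in the control and 16.9, 17.1 and 19.4 CPM in the DKO libraries (log2 change −1.91 ± 0.15, edgeR adjusted p = 6.72e-05). No library overlapped in either gene. Among other limb and patterning factors 6 of 18 rose and 3 fell. Twist2, a repressor of osteoblast maturation, stood at 15.6, 23.8 and 24.98 CPM in the control and 5.46, 5.06 and 6.02 CPM in the DKO libraries (log2 change −1.94 ± 0.20, edgeR adjusted p = 0.0002). The DKO libraries were below all control libraries for Twist2.

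Of 8 imprinted genes 2 rose, 1 fell and 5 were not called (37.5% called, against 17.4% of all genes). Igf2, a fetal growth factor, stood at 70.3, 68.1 and 107 CPM in the control and 4.52, 9.16 and 7.58 CPM in the DKO libraries (log2 change −3.51 ± 0.29, edgeR adjusted p = 0.00014). Dlk1, an inhibitor of differentiation, stood at 2.16, 2.02 and 1.799 CPM in the control and 38.6, 40.5 and 36.6 CPM in the DKO libraries (log2 change 4.29 ± 0.11, edgeR adjusted p = 1.08e-06), and Mest at 1.13, 0.591 and 0.649 CPM in the control and 23.1, 23.7 and 19.8 CPM in the DKO libraries (log2 change 4.82 ± 0.22, edgeR adjusted p = 7.78e-06), with reads that can be shared with Copg2. The lines did not overlap for these genes. In the prostaglandin E2 list 3 of 11 rose, 1 fell and 7 were not called (36.4% called, against 17.4% of all genes). Ptgs1, a cyclooxygenase, stood at 3.497, 1.23 and 1.05 CPM in the control and 8.94, 11.8 and 8.08 CPM in the DKO libraries (log2 change 2.33 ± 0.42, edgeR adjusted p = 0.00318), Hpgd, which degrades prostaglandins, at 0.257, 0.0985 and 0.04996 CPM in the control and 20.2, 20.4 and 18.6 CPM in the DKO libraries, and the transporter Slco2a1 at 1.29, 2.51 and 3.05 CPM in the control and 0.607, 0.595 and 0.557 CPM in the DKO libraries (log2 change −1.94 ± 0.38, edgeR adjusted p = 0.0037). Ptgs1 and Hpgd were higher and Slco2a1 lower in each DKO library than in any control library. Among NRF2 antioxidant genes 3 of 12 fell and 0 rose (25% called, against 17.4% of all genes). Slc7a11, the cystine transporter, stood at 18.2, 29.3 and 22.3 CPM in the control and 9.38, 8.63 and 9.87 CPM in the DKO libraries (log2 change −1.31 ± 0.18, edgeR adjusted p = 0.000767), and Gsta4, a glutathione transferase, at 3.24, 3.89 and 2.55 CPM in the control and 0.828, 0.773 and 0.892 CPM in the DKO libraries (log2 change −1.93 ± 0.24, edgeR adjusted p = 0.000507).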
